A study of Mus musculus with 6 samples.

Results

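The 10 genes described here are targets of MAPK/ERK signalling, called feedback genes below for short: Spry1, Spry2, Spry4, Spred1, Spred2, Spred3 and Dusp6, which encode inhibitors of the pathway, and Etv1, Etv4 and Etv5, which encode transcription factors downstream of it. They were taken by symbol, all 10 were found among the 16411 genes listed in the table, and each was followed through the 9 cell types to which the authors assigned the cells. The cells came from the dissociated whole hypothalamus of male ob/ob mice, which lack leptin and are obese and diabetic. At 11 weeks of age each had been given FGF1 R50E, which is fibroblast growth factor 1 carrying a mutation, at 3 µg into a cerebral ventricle, and was killed on day 5, so leptin deficiency and the injection are shared by every cell described. Of 6 labelled mice, 4 had cells in the table (mice 3, 4, 30 and 34, with 7386, 3180, 3005 and 6580 cells), and each was 1 replicate. With this single group no effect of the injection was estimated, and every comparison below is between cell types within the same mice.

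Growth factor receptors such as those for FGF and PDGF act through RAS, RAF and MEK to activate the kinase ERK. ERK then switches on transcripts of its own inhibitors: Sprouty and Spred proteins restrain RAS and RAF activation, and DUSP6 is a phosphatase that inactivates ERK in the cytoplasm. The PEA3 factors ETV1, ETV4 and ETV5 are ETS transcription factors that pass the signal on to other genes, and transcripts of all these families are in common use as readouts of ERK activity. In the oligodendrocyte lineage, PDGF drives the division of oligodendrocyte precursor cells (OPC), which leave the cell cycle as committed precursors (COP) and become myelinating oligodendrocytes (Olig).

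The 20151 cells fell into 1261 OPC, 681 COP, 4566 Olig, 5909 astrocytes (Astro), 4490 tanycytes (Tany), 1530 ependymal cells (Epend), 1266 endothelial cells (Endo), 380 microglia (Micro) and 68 vascular leptomeningeal cells (VLMC). A list of 6 markers for each label was highest in the cells carrying that label in 9 of 9 types. Under the endothelial label, markers of mural cells, the pericytes and smooth muscle of the vessel wall, were also present at a summed 3977 CPM (the UMIs of a gene in the summed cells of a mouse and type, scaled to a total of 1000000), beside 9953 CPM of endothelial markers. COP held Olig markers at 25760 CPM, against 948 CPM in OPC and 42515 CPM in Olig. Mouse 30 stood apart in Cxcl10, a chemokine induced by interferon, at 3731 CPM in ependymal cells and 855 CPM in tanycytes against at most 38.5 and 12.9 CPM in the other mice. Barcodes found in more than 1 of the 4 libraries made up 194 of 19954 (0.972%). Median depth per cell was between 851 and 1771 UMIs over the types, COP being the deepest. VLMC numbered 6 cells in the mouse with fewest, so they entered no test and their levels are given with their UMIs only.

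By annotation (GENCODE M21 on GRCm38), Spry1 lies at chr3:37639947-37644598, Spry2 at chr14:105891947-105896819, Dusp6 at chr10:99263231-99267489 and Spred1 at chr2:117121374-117182279. Spred2 and Etv4 are both on chromosome 11, at chr11:19924375-20024026 and chr11:101769742-101785371. Spred3 lies at chr7:29158829-29170411, Etv1 at chr12:38779380-38870484 and Etv5 at chr16:22381309-22439719. None of these 9 overlaps an annotated gene on its own strand, while Gm42922 lies opposite Spry1 and Ggn opposite Spred3. Dusp6, Spred1, Spry1 and Spry2 differ in how they move from OPC to COP. The mean level of Spred1 in COP stayed within 2-fold of that in OPC, where the other 3 fell most of the way to 0. The 250 bases upstream of the annotated start are shown for these genes. They are read 5′ to 3′ on the strand of the gene, from RefSeq on GRCm38.p6, at chr10:99262981-99263230 (plus strand), chr2:117120821-117121070 (plus), chr3:37639697-37639946 (plus) and chr14:105896820-105897069 (minus). Capitals mark the ETS core CGGAAG, the letters that ETS factors such as ETV1, ETV4 and ETV5 prefer, or its complement CTTCCG.
Dusp6: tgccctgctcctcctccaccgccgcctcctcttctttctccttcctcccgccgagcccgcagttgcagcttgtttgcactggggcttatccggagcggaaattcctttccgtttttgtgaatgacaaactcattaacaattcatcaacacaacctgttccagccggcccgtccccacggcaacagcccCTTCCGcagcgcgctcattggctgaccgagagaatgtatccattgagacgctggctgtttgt
Spred1: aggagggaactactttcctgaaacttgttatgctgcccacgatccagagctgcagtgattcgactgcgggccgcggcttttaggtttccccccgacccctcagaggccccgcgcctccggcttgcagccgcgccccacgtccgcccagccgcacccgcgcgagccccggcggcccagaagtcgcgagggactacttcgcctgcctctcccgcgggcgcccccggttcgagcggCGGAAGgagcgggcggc
Spry1: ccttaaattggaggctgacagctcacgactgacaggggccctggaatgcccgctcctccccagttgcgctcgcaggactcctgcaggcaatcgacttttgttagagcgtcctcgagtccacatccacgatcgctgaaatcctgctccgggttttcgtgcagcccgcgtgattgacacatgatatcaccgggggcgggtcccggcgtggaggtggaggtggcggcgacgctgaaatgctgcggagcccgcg
Spry2: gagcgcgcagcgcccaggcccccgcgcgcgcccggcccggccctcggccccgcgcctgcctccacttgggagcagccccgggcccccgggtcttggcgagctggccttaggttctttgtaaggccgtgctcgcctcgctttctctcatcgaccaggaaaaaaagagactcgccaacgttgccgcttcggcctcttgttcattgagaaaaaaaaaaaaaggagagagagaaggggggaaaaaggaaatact

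Of the 10 genes, 8 had an upstream stretch in the promoter table. The core CGGAAG was found on either strand in 3 of them, Dusp6, Spred1 and Spred2, and in 13.8% of 27025 stretches of the same length. The longer CCGGAAGT, which contains the core, was in none of the 8 and in 2.92% of all. The CREB site TGACGTCA and the AP-1 site TGANTCA were in none of the 8, and in 1.60% and 6.85% of all. Whether the core goes with the level of a gene along the lineage was not tested.

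Precursor cells had the highest mean level of 8 of the 10 genes among the 8 types with enough cells to test, the exceptions being Dusp6, highest in microglia, and Etv1, highest in oligodendrocytes. For 3 of the 8 the first place was not resolved in the joint fit, where OPC did not differ from astrocytes in Spry2 and Spred1 or from endothelial cells in Spred2 (adjusted p 0.317, 0.963 and 0.418) and the fitted values, on TMM-scaled totals, fell on the other side of 0 from the CPM means. Summed over the 10 genes, OPC stood at 1290 ± 133 CPM (SD, n = 4), Olig at 819 ± 59.0 CPM and astrocytes at 584 ± 92.6 CPM. COP stood at 231 ± 44.3 CPM, next to ependymal cells at 220 ± 38.3 CPM and tanycytes at 273 ± 13.98 CPM. Microglia held 475 ± 70.0 CPM and endothelial cells 414 ± 78.8 CPM. Without Etv1 the Olig sum was 265 ± 25.7 CPM, close to tanycytes at 251 ± 13.5 CPM. When each cell was thinned to 450 UMIs, which left out no cell, 43.0% ± 5.21 of OPC had a UMI of any of the 10 genes, against 8.98% ± 1.86 of COP and 30.1% ± 0.878 of Olig (SD, n = 4). Without thinning these shares were 71.4%, 33.9% and 59.2%. The lowest thinned share among the other types was 8.98% ± 3.00 in ependymal cells, so by this measure COP could not be told from the type with the fewest positive cells.

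**Figure D1:**
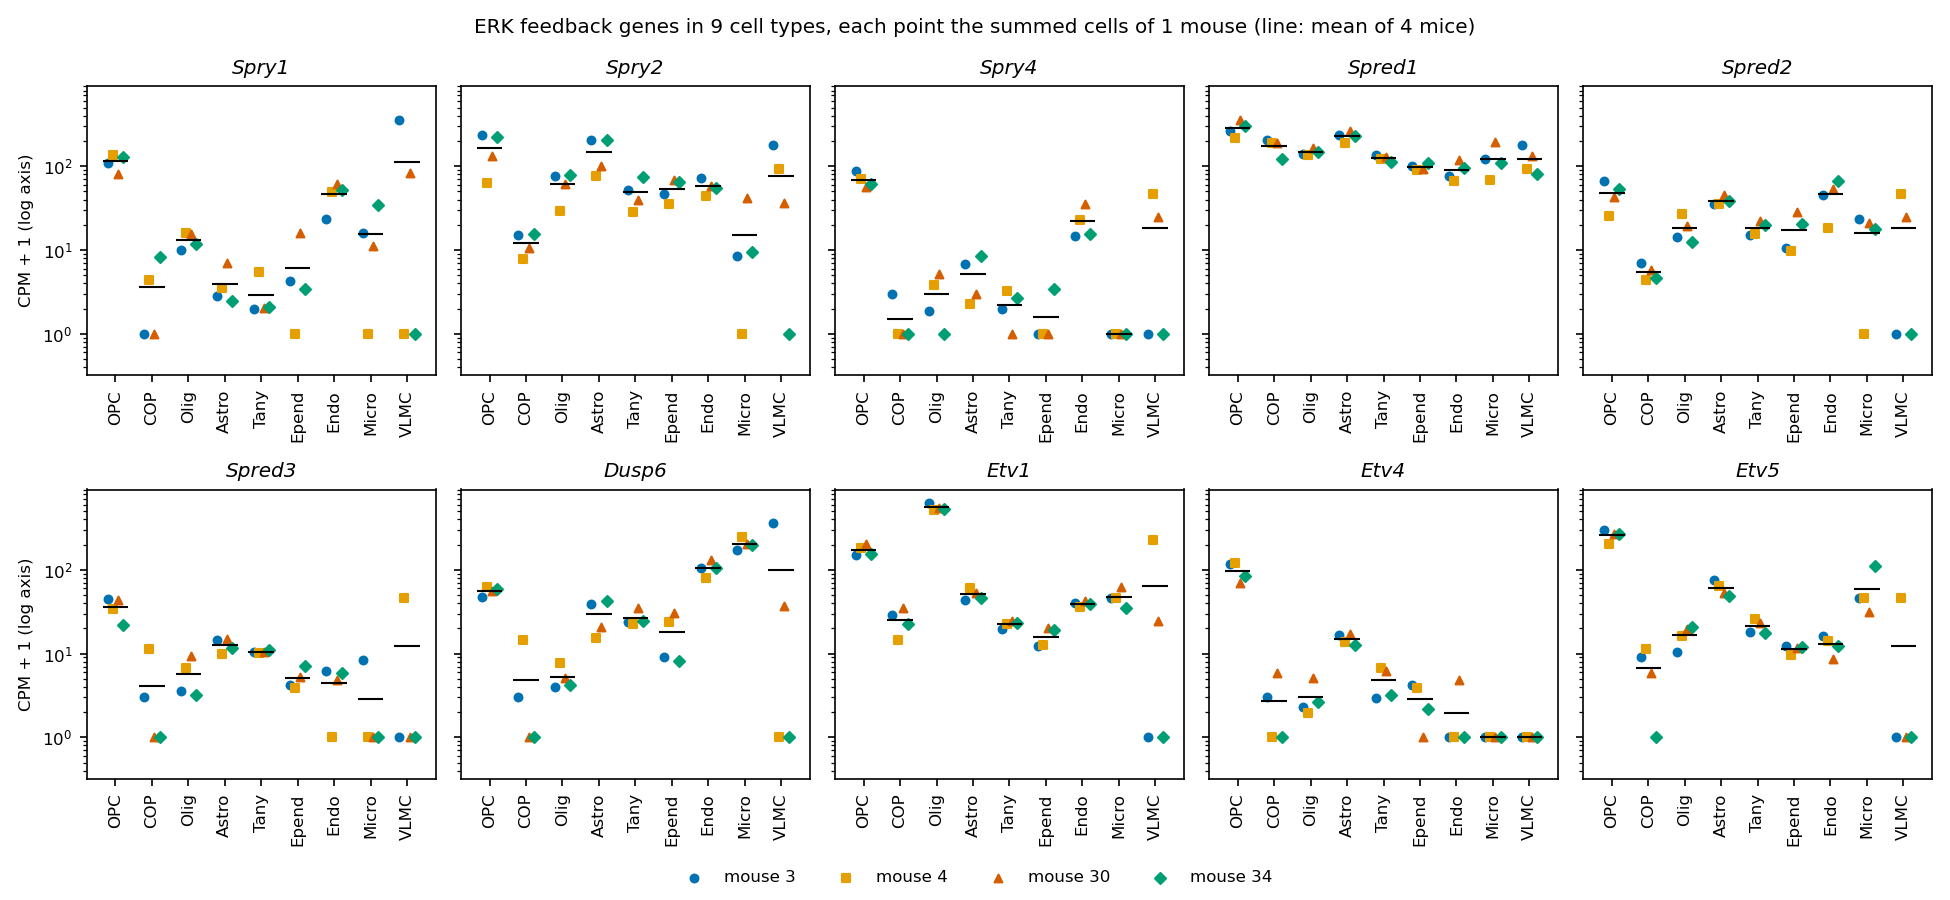
Level of each gene in the 9 cell types, as CPM + 1 on a log axis. Each point is the summed cells of 1 mouse and each black line the mean of 4 mice. OPC have the highest mean of the types tested in 8 panels (not resolved from the next type for Spry2, Spred1 and Spred2), Dusp6 is highest in microglia (172 to 246 CPM) and Etv1 in Olig (509 to 631 CPM), and VLMC scatter because 68 cells were available.

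The lineage comparison asks how far the feedback transcripts fall when precursors commit and whether they return in oligodendrocytes. Between OPC and COP, 7 of 8 tested genes were lower in COP in edgeR (a log2 fold change beyond 1 at an adjusted p under 0.05) and none was higher, where 13.2% and 10.8% of all 4879 genes tested were lower and higher by the same rule. The median log2 fold change was -4.55 over the 8 genes and -0.0061 over all genes tested. With 7 of the 8 kept by the low-count filter through OPC alone, a negative median was built in. Spred2 and Spred3 did not pass the filter on low counts. The 7 called genes, at 1 to 31 UMIs each in COP, passed it through OPC, where they were high. They could thus only be called lower, and the count is no evidence on direction. In all 10 genes, the OPC of every mouse lay above the COP of every mouse, as did 14.6% of 14330 genes with a UMI in either type, while 7.61% lay the other way round. The cell type labels are likely to rest on the same counts, so these numbers describe the labelled cells.

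Of the Sprouty genes, whose proteins restrain RAS and RAF activation, Spry1 and Spry4 fell to a few molecules in COP. Spry1 stood at 109, 135, 80.7 and 128 CPM in the OPC of mice 3, 4, 30 and 34, and in COP 3 UMIs were counted in all, 1 in mouse 4 and 2 in mouse 34. OPC exceeded COP 49.1-fold by pooled counts (95% counting interval 16.5 to 240). In Olig, Spry1 was back at 9.05, 15.2, 14.4 and 10.8 CPM, every mouse above the highest COP value of 7.24 CPM and every mouse below the lowest OPC value. Spry4 held 96 UMIs in OPC, at 55.2 to 87.6 CPM, and 1 UMI in COP, a ratio of 89.4 (15.7 to 3568). Olig held 7 UMIs of Spry4 in 4566 cells, so no return of Spry4 was detectable at this depth (Olig over COP 1.57, 0.201 to 70.6).

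Spry2 kept a low level in COP in every mouse and returned further. It stood at 236, 61.5, 132 and 225 CPM in OPC, at 14.05, 6.79, 9.57 and 14.5 CPM in COP and at 74.6, 28.4, 59.7 and 78.0 CPM in Olig. The COP values lay below all others, while OPC and Olig overlapped through mouse 4, whose OPC were lower than the Olig of mice 3 and 34. The log2 fold change was -3.83 ± 0.26 (SE, adjusted p 3.55e-24) in COP against OPC and 2.66 ± 0.29 (1.64e-12) in Olig against COP. Olig remained below OPC by a log2 fold change of -1.12 ± 0.14 (2.59e-12), a value that lies near the limit of 1 and passed it no longer with sums thinned to equal totals (-0.90), in the joint fit (-0.99) or with no filter on low counts (-0.98).

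The Spred genes, membrane-bound relatives of Sprouty that hold back RAS and RAF, did not move together. Spred1 stood at 265, 217, 357 and 298 CPM in OPC, 203, 187, 187 and 120 CPM in COP and 140, 134, 163 and 148 CPM in Olig. Every OPC value was above every COP value, but the step was less than 2-fold, with a log2 fold change of -0.64 ± 0.14 (adjusted p 6.17e-05), and COP and Olig overlapped. Spred1 in Olig against COP was -0.0095 ± 0.13 (adjusted p 0.958), a value that turned to 0.14 without mouse 3. Spred2, in contrast, stood at 65.7, 24.6, 42.5 and 52.8 CPM in OPC, 6.02, 3.40, 4.79 and 3.62 CPM in COP and 13.4, 25.6, 18.5 and 11.4 CPM in Olig. COP lay below both other types in every mouse, and in mouse 4 the Olig level was above the OPC level. Pooled counts gave 10.7 times more Spred2 in OPC than in COP (4.68 to 30.2) and 3.28 times more in Olig than in COP (1.45 to 9.19). In Olig against OPC the Spred2 log2 fold change was -1.30 ± 0.27 (adjusted p 1.12e-05), and without mouse 3 it was -0.94 and no longer called. Spred3 held 47 UMIs in OPC, at 20.6 to 43.8 CPM, and 4 in COP, of which 3 were in mouse 4. Its ratio was 10.9 (4.00 to 41.8) for OPC over COP and 1.12 (0.375 to 4.51) for Olig over COP.

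Dusp6, the ERK phosphatase, was at 46.0, 61.5, 55.2 and 57.4 CPM in OPC and at 2.01, 13.6, 0 and 0 CPM in COP. Mouse 4 gave 4 of the 5 UMIs in COP. Olig were at 3.02, 6.63, 4.11 and 3.25 CPM, inside the range of COP and far below OPC, and the log2 fold change was -3.64 ± 0.48 (adjusted p 2.26e-10) for COP and -3.36 ± 0.32 (1.32e-17) for Olig, both against OPC. No return of Dusp6 in Olig was detectable.

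The PEA3 factors parted in oligodendrocytes. Etv5 fell from 293, 201, 263 and 268 CPM in OPC to 8.03, 10.2, 4.79 and 0 CPM in COP, a log2 fold change of -5.28 ± 0.28 (adjusted p 3.83e-31). Etv4 fell from 116, 119, 67.9 and 82.6 CPM to 2 UMIs in all COP, a ratio of 62.4 (16.9 to 521). Olig held 9.49, 15.2, 18.5 and 19.5 CPM of Etv5 and 0.947 to 4.11 CPM of Etv4, so both stayed below OPC, by log2 fold changes of -3.77 ± 0.17 and -5.50 ± 0.33.

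Etv1 was the only one of the 10 called higher in Olig than in OPC. It stood at 149, 180, 204 and 151 CPM in OPC, 28.1, 13.6, 33.5 and 21.7 CPM in COP and 631, 509, 541 and 536 CPM in Olig, with no overlap between any pair of the 3 types. The log2 fold change was -2.72 ± 0.23 (adjusted p 4.31e-19) from OPC to COP, 4.81 ± 0.17 (1.01e-37) from COP to Olig and 2.13 ± 0.11 (1.70e-37) from OPC to Olig. The share of cells with an Etv1 UMI after thinning was 7.26% ± 1.26 in OPC, 0.954% ± 0.851 in COP and 21.2% ± 1.53 in Olig (SD, n = 4), against 0.287% ± 0.209 in ependymal cells, the type with the lowest share. The COP share was thus in the range of types with little Etv1, while the Olig share at equal depth was well above that of every other type.

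**Figure D2:**
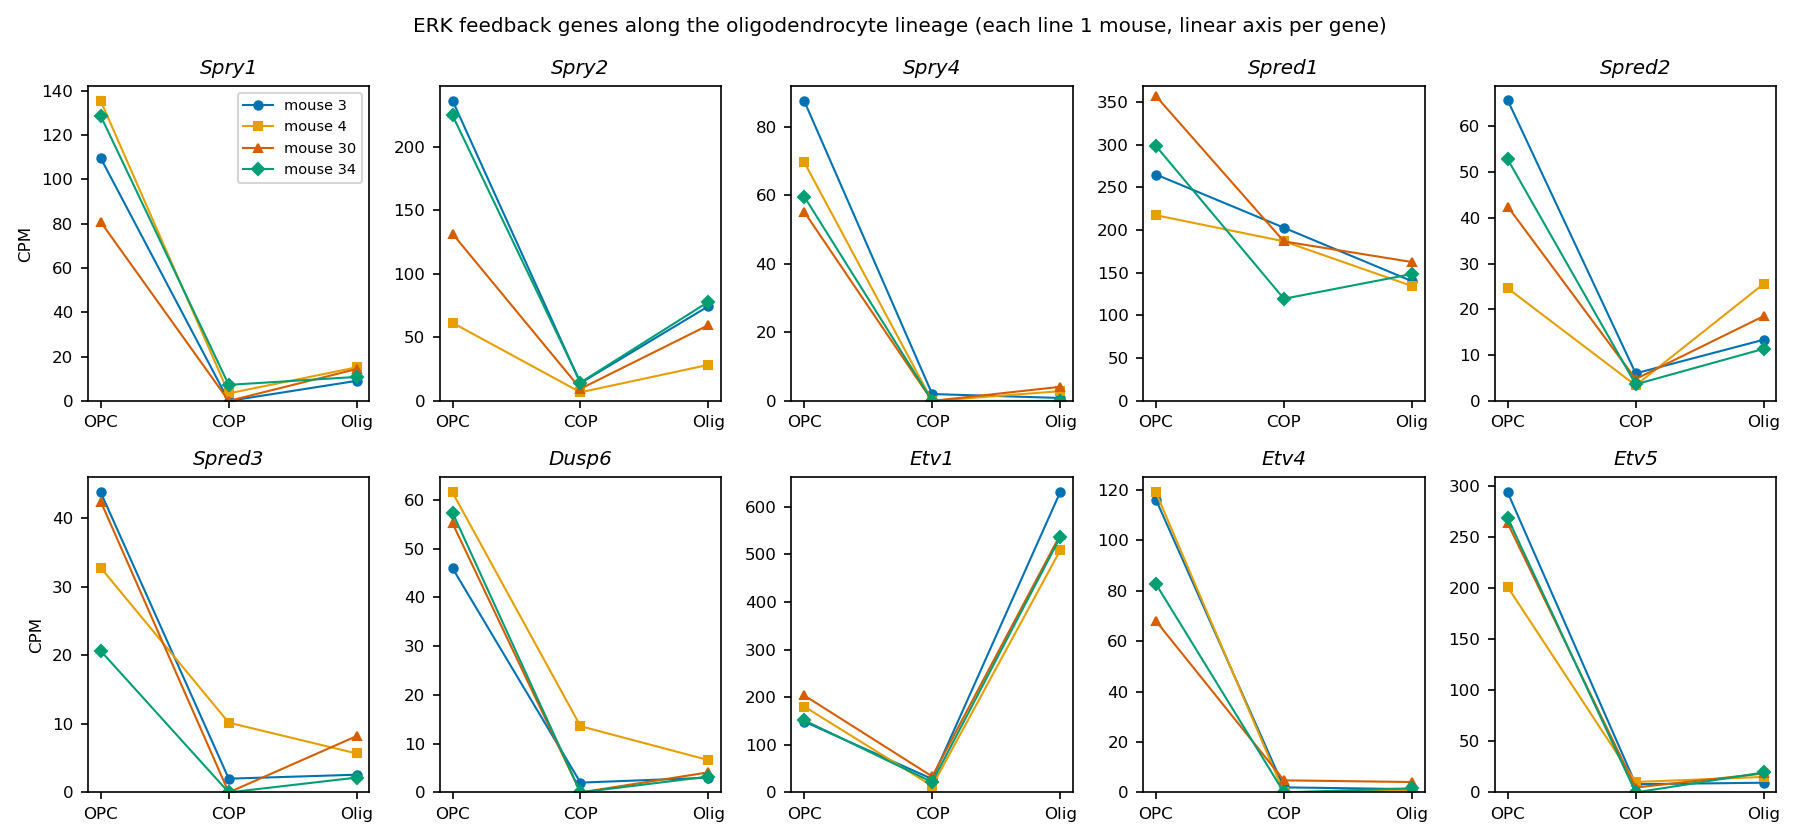
CPM of the 10 genes in OPC, COP and Olig, each line 1 mouse, on linear axes that start at 0. All lines drop from OPC to COP; Etv1 then climbs above its OPC level, Spry1, Spry2, Spred2 and Etv5 climb in every mouse, reaching their OPC level only for Spred2 in mouse 4, and Spred1 stays within 120 to 357 CPM.

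Over the 10 genes, 4 lay lower in COP than in both OPC and Olig without overlap between mice: Spry1, Spry2, Spred2 and Etv1. Of 14856 genes with a UMI in the lineage, 3.25% did so. These 4 were also the ones whose Olig values lay above all COP values, as did 9.69% of 14690 genes, and in none of the 10 did COP lie above Olig in this way (16.9% of genes). Only 3 of the 10 passed the filter in Olig against COP, and 2 of these were higher in Olig, where 13.8% of 6209 genes tested were higher and 13.3% lower. Of these, Spry2 passed through Olig and could only be called higher. When the same contrast was taken from the joint fit of 8 types, in which all 10 genes passed the filter, 5 were higher in Olig and none lower, beside 12.9% and 9.93% of 10166 genes. The 3 added there were Spry1 (log2 fold change 2.54 ± 0.70, adjusted p 0.00212), Spred2 (2.05 ± 0.53, 0.00103) and Etv5 (1.55 ± 0.51, 0.0108), each resting on 3 to 8 UMIs in COP. Against OPC, 7 of 9 tested genes were lower in Olig and 1 was higher, where 15.2% and 12.8% of 6497 genes were lower and higher. Among the lower genes, Spry1, Spry4, Dusp6, Etv4 and Etv5 passed the filter through OPC and could only be called lower. In 7 of the 10 every OPC value lay above every Olig value and in Etv1 every one lay below, as in 24% and 7.5% of 14797 genes. Set on a scale where 0 is the Olig level and 100 the OPC level of the same mouse, COP lay at -53.9% ± 15.9 for Spry2, -10.9% ± 7.82 for Spry1, -4.16% ± 3.22 for Etv5 and -0.937% ± 9.37 for Dusp6 (SD, n = 4). For Etv1, whose Olig level is the higher one, COP lay at 140% ± 12.8, beyond the OPC end. Spred2 could not be placed, because OPC and Olig were alike in mouse 4. Pdgfra, which encodes the PDGF receptor of precursors, fell from 1259 ± 103 CPM in OPC to 12.9 ± 8.49 CPM in COP and stood at 13.9 ± 7.32 CPM in Olig, so it had no low point in COP, at -0.0824% ± 0.682 on the same scale.

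The other genes of the pathway were taken from 4 lists, 83 genes in all, of which 81 were in the table. Between COP and OPC, 24% of all genes tested were called in either direction. Among receptors and adaptors 1 of 13 tested was higher and 6 were lower in COP, led by Pdgfra (log2 fold change -6.55 ± 0.17), the neurotrophin receptor gene Ntrk3 (-3.23 ± 0.27) and Fgfr1 (-2.83 ± 0.35). In the cascade 2 of 9 were higher, Mapk3, which encodes ERK1 (1.37 ± 0.20), and the RAS gene Nras (1.08 ± 0.18), and 1 was lower, Map2k1, which encodes MEK1 (-1.07 ± 0.31). Of 9 other negative regulators 1 was lower, the phosphatase gene Dusp1 (-1.55 ± 0.33), and 1 was higher, Dusp7 (1.49 ± 0.28), which encodes another ERK phosphatase. Of 6 other transcripts known to respond to ERK, 4 were lower, among them the cyclin gene Ccnd1 (-6.04 ± 0.26) and Fos (-2.81 ± 0.14), and 2 were higher, among them the ephrin receptor gene Epha4 (3.06 ± 0.26).

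In Olig against OPC, where 12.8% of all genes tested were higher and 15.2% lower, 3 of 15 receptors and adaptors were higher and 3 lower, with the largest changes in Pdgfra (log2 fold change -6.35 ± 0.13), Fgfr2 (5.43 ± 0.25) and Ntrk3 (-2.99 ± 0.21). In the cascade 1 of 10 was higher, Mapk3 (2.39 ± 0.16), and 0 were lower. Of 12 other negative regulators 3 were higher, the phosphatase genes Dusp7 (1.74 ± 0.22) and Dusp3 (1.69 ± 0.15) and the EGF receptor inhibitor gene Errfi1 (1.64 ± 0.27), and 1 was lower. Of 6 responders to ERK 4 were lower, led by Ccnd1 (-4.38 ± 0.14), Phlda1 (-2.35 ± 0.16) and Ier3 (-1.71 ± 0.30), and 0 were higher.

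Between Olig and COP, 27.1% of all genes tested were called. The receptors that were higher in Olig were 3 of 12 tested: Fgfr2 at 218 ± 20.2 against 12.4 ± 7.35 CPM, Erbb3 (log2 fold change 1.97 ± 0.28) and Fgfr3 (1.11 ± 0.21). Map2k1 was higher by 1.79 ± 0.25 and Rras2, a RAS relative, lower, at -3.35 ± 0.41, among 11 tested. Of 11 other negative regulators 4 were higher and 1 lower, the largest being Dusp3 (2.28 ± 0.19), Rasal2 (2.24 ± 0.32) and Errfi1 (1.47 ± 0.28). Of 6 responders to ERK 2 were higher and 2 lower in Olig. Fos returned by 1.75 ± 0.14 to 245 ± 44.3 CPM, while Etv6, an ETS gene outside the PEA3 family, and Epha4 were lower by -3.79 ± 0.32 and -2.30 ± 0.20.

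Among the ventricular glia and astrocytes, most of the feedback genes that could be tested were higher in astrocytes. Spry1 did not pass the filter on low counts, and its values overlapped, at 2.97 ± 2.07 CPM in astrocytes and 5.10 ± 6.59 CPM in ependymal cells (SD, n = 4). Against ependymal cells, the ciliated lining of the ventricle, 6 of 6 tested genes were higher in astrocytes, where 14.3% of 8371 genes were higher and 17.6% lower. Etv5 was at 75.2, 63.0, 52.0 and 47.5 CPM in astrocytes and 11.3, 8.66, 10.5 and 10.8 CPM in ependymal cells, with no overlap and a log2 fold change of 2.57 ± 0.24 (adjusted p 1.70e-08). Etv1 (1.77 ± 0.24), Spry2 (1.65 ± 0.20), Spred1 (1.33 ± 0.13) and Spred2 (1.32 ± 0.26) were higher as well. Dusp6 was called at 1.26 ± 0.39 (adjusted p 0.00982), but its groups overlapped, at 38.5, 14.1, 20.01 and 41.5 CPM in astrocytes and 8.08, 23.1, 29.5 and 7.22 CPM in ependymal cells. In mice 4 and 30 the ependymal value was the higher one. Over all 10 genes, 7 lay above without overlap in astrocytes and none below, where 13.8% and 18.4% of genes with a UMI did. The Dusp6 call was lost without mouse 3 (0.87, adjusted p 0.110), without mouse 34 (0.65, 0.231) and in DESeq2 (0.99, 0.180).

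Tanycytes, the elongated glia of the ventricle floor, were set against both astrocytes and ependymal cells. Against astrocytes, 5 of 8 tested genes were lower in tanycytes and none higher, where 11% and 10.1% of 10081 genes were: Etv4 (log2 fold change -2.14 ± 0.35), Spry2 (-1.69 ± 0.12), Etv5 (-1.68 ± 0.17), Etv1 (-1.198 ± 0.16) and Spred2 (-1.14 ± 0.18). The Spred2 call was lost in edgeR with sums thinned to the smallest total (-0.86, adjusted p 0.00819). Spred1 was lower by less than 2-fold (-0.90 ± 0.10), and Dusp6 (-0.45 ± 0.20, adjusted p 0.0560) and Spred3 (-0.33 ± 0.28, 0.336) did not pass. Etv4 held 15.9, 12.8, 16.01 and 11.5 CPM in astrocytes and 1.97, 5.67, 5.27 and 2.24 CPM in tanycytes. It was among 6 of the 10 genes whose astrocyte values all lay above the tanycyte values, as did 13.2% of genes, while none lay below (15.9%). Against ependymal cells 0 of 6 tested genes passed both thresholds in edgeR or in DESeq2, where 19.8% of 8781 genes did in edgeR (6.73% higher and 13.1% lower in tanycytes). At an unadjusted p below 0.05 there were 4 genes. Without the limit on the fold change, 3 were higher in tanycytes: Etv5 (0.94 ± 0.31, adjusted p 0.0117), Dusp6 (0.87 ± 0.29, 0.0120) and Spred1 (0.41 ± 0.13, 0.00748). Spred1, Spred3 and Etv5 were the 3 genes whose tanycyte values all lay above the ependymal values, as did 10% of genes, and none of the 10 lay below them in the same way (15.3%). Without mouse 4 or mouse 30, Dusp6 passed both thresholds (1.08 and 1.201), and without mouse 3 or mouse 34, Etv5 did (1.05 and 1.06). Spry2 in tanycytes and ependymal cells, at 47.7 ± 19.5 and 52.8 ± 15.5 CPM (SD, n = 4), differed by -0.0036 ± 0.18 on the log2 scale.

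Of the other pathway genes in these types, the receptor genes showed the largest differences. Egfr, the EGF receptor gene, stood at 51.3 ± 9.57 CPM in astrocytes, whereas tanycytes held 3.49 ± 1.08 CPM and ependymal cells 2.01 ± 2.41 CPM. In astrocytes against ependymal cells (14.3% of all genes tested higher and 17.6% lower), 6 receptor and adaptor genes were higher and 2 lower of 17, led by Egfr (log2 fold change 4.36 ± 0.38), the PDGF receptor gene Pdgfrb (3.20 ± 0.28) and the FGF receptor gene Fgfr3 (3.20 ± 0.13). In the cascade itself 0 of 12 were higher and 1 was lower, Rps6ka2 (log2 fold change -1.25 ± 0.29). Of 11 other negative regulators 1 was higher in astrocytes, the RAS GTPase activator gene Rasa2 (2.41 ± 0.20), and 3 were lower, among them Dusp1 (-1.73 ± 0.22) and the RAF inhibitor gene Pebp1 (-1.19 ± 0.12). Of 6 responders to ERK 2 were lower, Ier3 (-1.76 ± 0.31) and Ccnd1 (-1.47 ± 0.24), and 0 higher. In tanycytes against astrocytes (10.1% higher and 11% lower), 1 of 23 receptors and adaptors was higher, the VEGF receptor gene Flt1 (3.04 ± 0.18), and 5 were lower, led by Egfr (-4.06 ± 0.25) and Fgfr3 (-3.24 ± 0.09), while 0 of 15 genes of the cascade were called. Of 13 other negative regulators 2 were higher and 3 lower, the latter Dusp7 (-1.65 ± 0.37), Rasa2 (-1.56 ± 0.13) and Errfi1 (-1.53 ± 0.32). Of 10 tested responders 3 were higher in tanycytes, Ier3 (1.79 ± 0.20), Phlda1 (1.70 ± 0.23) and, in 3 of 4 mice, Fosl2 (1.00 ± 0.39), and 0 were lower. Between tanycytes and ependymal cells (6.73% higher and 13.1% lower in tanycytes), 3 of 19 receptors and adaptors were higher in tanycytes, Flt1 (2.73 ± 0.19), the neurotrophin receptor gene Ntrk2 (1.48 ± 0.09) and Pdgfrb (1.45 ± 0.35), and 1 was lower. Rps6ka2 (-1.87 ± 0.33) was the 1 gene of the cascade that was lower, of 14, and 0 of 8 responders and 0 of 11 other negative regulators were called in edgeR.

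**Figure D3:**
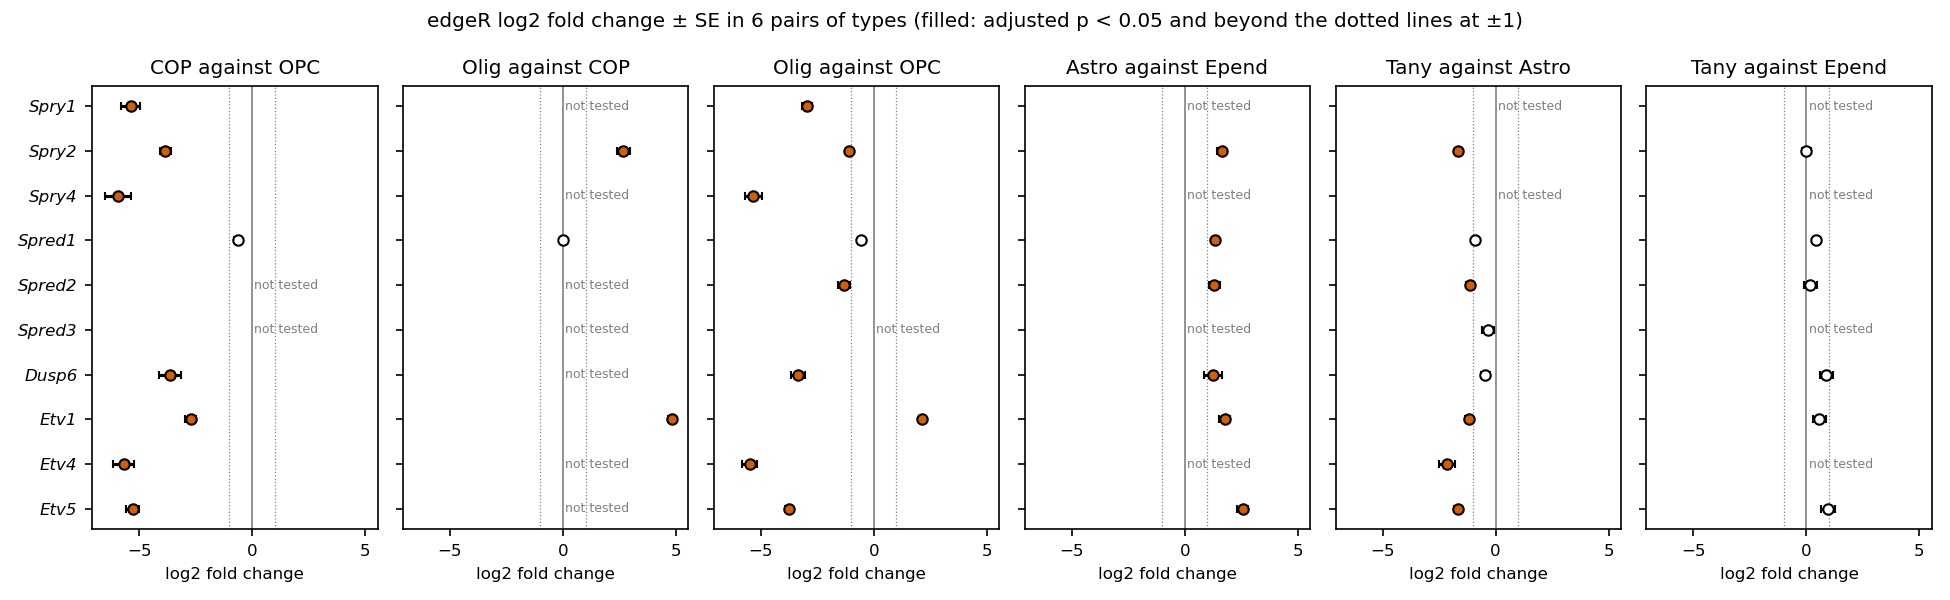
Log2 fold change ± SE (edgeR) of each gene in 6 pairs of cell types, positive where the first-named type is higher. Filled points passed an adjusted p below 0.05 and lie beyond the dotted lines at 1 and -1; genes that did not pass the filter on low counts are written as not tested. Nearly all filled points are negative in COP and Olig against OPC, Etv1 in Olig being the exception, and none is filled in Tany against Epend.

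Each type was also set against the mean of the other 7 in the joint fit, in which all 10 genes passed the filter. The fitted folds of Spry4 and Etv4 are not given here, because both were at 0 UMIs in microglia and the mean then depends on a floor. The counts include both genes among the 8 higher in OPC, Etv4 among those higher in astrocytes and Spry4 among the called genes in endothelial cells. In COP, Olig and ependymal cells neither gene could be called, with SEs of 5.41 or more on the log2 scale, and the same held for Spry4 in tanycytes and Etv4 in endothelial cells, so the counts there rest on the genes left. In OPC 8 genes were higher and 0 lower, where 10.7% and 6.63% of 10166 genes were. In COP 0 were higher and 6 lower (11.9% and 16.6% of all genes). The largest falls in COP were those of Dusp6 (log2 fold change -3.18 ± 0.50), Spry2 (-2.53 ± 0.35), Spred2 (-2.51 ± 0.47) and Etv5 (-2.47 ± 0.43). Olig had 1 higher, Etv1 (4.14 ± 0.08), and 1 lower, Dusp6 (-2.80 ± 0.36), where 11.1% and 12.1% of genes were. Astrocytes had 5 higher and 1 lower, the latter Spry1 at -2.14 ± 0.45 (11.8% and 6.69% of genes). Tanycytes had 0 higher and 2 lower, Spry1 and Etv1 (12.2% and 7.42%), and ependymal cells 0 higher and 2 lower, Etv1 and Etv5 (18% and 9.89%), a count that rose to 4 without mouse 30. The other transcripts known to respond to ERK had another order. Of 14 tested, 2 were higher and 1 lower in OPC (10.7% and 6.63% of genes). In microglia 11 were higher and 1 lower (10.1% and 9.72%), and in endothelial cells 10 were higher and 0 lower (14.2% and 9.08%).

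Outside the neural lineages, endothelial cells and microglia shared a high Dusp6. In the joint fit Spry2 was higher in endothelial cells than in microglia (log2 fold change 1.97 ± 0.55, adjusted p 0.00401), while Spry1 did not pass (1.29 ± 0.57, 0.0940). Endothelial cells had 4 genes higher and 1 lower, where 14.2% and 9.08% of genes were: Dusp6 (log2 fold change 2.31 ± 0.20), Spry1 (2.56 ± 0.29), Spred2 (1.46 ± 0.23) and Spry4 were higher and Etv5 (-1.18 ± 0.33) was lower. Microglia had 2 higher, Dusp6 (3.28 ± 0.28) and Etv5 (1.37 ± 0.39), and 1 lower, Spry2 (-2.05 ± 0.51), where 10.1% and 9.72% of genes were. The microglial Etv5 value was uneven, at 45.0, 44.7, 30.4 and 110 CPM, and without mouse 34 the number of higher genes was 1. The lower call of Spry2 in microglia was lost when mouse was not a block.

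Dusp6 was highest in microglia, at 172, 246, 203 and 194 CPM, followed by endothelial cells at 104, 78.0, 129 and 103 CPM and by OPC. Every microglial value was above every endothelial value and every endothelial value above every OPC value. In the joint fit microglia exceeded endothelial cells by a log2 fold change of 0.85 ± 0.27 (adjusted p 0.0119), and endothelial cells exceeded OPC by 1.24 ± 0.25 (3.31e-05). After thinning, 10.4% ± 3.11 of microglia had a Dusp6 UMI, against 4.64% ± 0.592 of endothelial cells and 0.329% ± 0.133 of Olig, where the gene was near its lowest. Spry4 and Etv4 had 0 UMIs in the 380 microglia, which allows up to 7.58 CPM. The lower end of the 95% counting interval of OPC over microglia was 7.36 for Spry4 and 10.3 for Etv4.

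Among the 8 types tested, endothelial cells had the second highest mean of Spry1 and Spry4, after OPC, although for Spry1 they were not resolved from microglia, whose value rests on 7 UMIs. Spry1 stood at 22.3, 47.7, 60.7 and 50.7 CPM and Spry4 at 13.7, 21.7, 34.2 and 14.7 CPM in the endothelial label, below the OPC of every mouse. The log2 fold change of OPC over endothelial cells was 1.12 ± 0.26 (adjusted p 2.30e-04) for Spry1 and 1.57 ± 0.37 (2.94e-04) for Spry4. Etv4 was at 1 UMI in the 1266 cells. Spred2, at 44.5, 17.3, 53.1 and 65.4 CPM in endothelial cells, overlapped OPC, which were higher in 2 of 4 mice. The order of these types was not resolved, since the mean CPM was slightly higher in OPC and the fitted log2 fold change of OPC over endothelial cells was below 0 (-0.28 ± 0.26, adjusted p 0.418).

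Because the endothelial label also held mural markers, its cells were divided by which of the 6-marker lists had more UMIs, a division chosen after the data had been seen. In 1052 cells the endothelial list led, in 181 the mural list, and in 33 both were equal. Dusp6 was at 110, 82.0, 139 and 97.8 CPM in the first and at 61.8, 68.9, 87.6 and 147 CPM in the second, so it was not confined to either. Spry1 was at 48.0 ± 16.6 CPM in cells led by endothelial markers and at 33.5 ± 32.0 CPM in cells led by mural markers (SD, n = 4). Spry4 was at 14.9 ± 5.69 and 49.9 ± 48.8 CPM, the second resting on 9 UMIs, of which mouse 34 gave none.

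**Figure D4:**
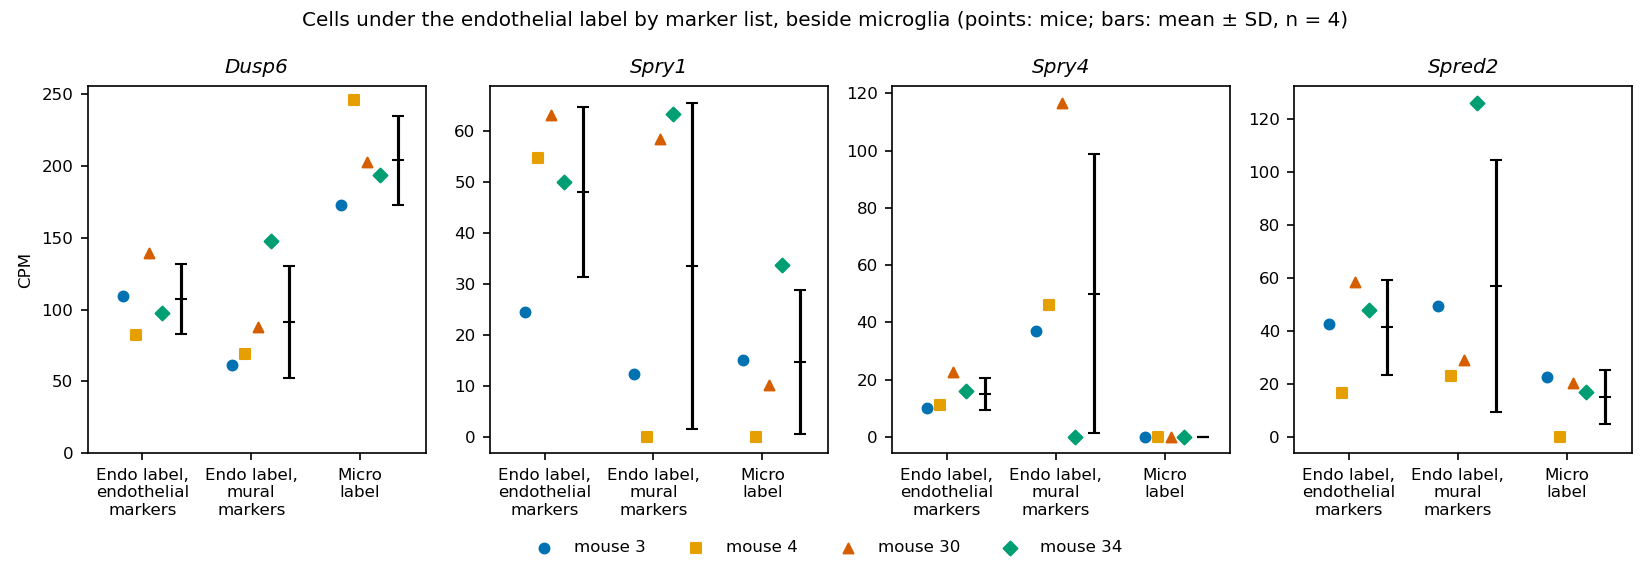
CPM of Dusp6, Spry1, Spry4 and Spred2 in cells under the endothelial label, divided by the marker list with more UMIs, beside microglia. Points are mice and bars the mean ± SD of 4 mice. Dusp6 lies between 61.8 and 147 CPM in both endothelial divisions and between 172 and 246 CPM in microglia, where Spry4 is at 0.

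Among VLMC, 9 UMIs of Spry1, 6 of Spry2, 15 of Spred1, 5 of Dusp6 and 7 of Etv1 were counted in 68 cells, and Etv4 was at 0, which allows up to 24.1 CPM. Of the 7 Etv1 UMIs, 5 were in mouse 4. With 6 cells each in the smallest samples, no order among mice or genes was read from these values.

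The order of the types by mean level was resolved in parts. For Spry2, OPC (164 ± 82.7 CPM) and astrocytes (147 ± 69.2 CPM) could not be told apart. By CPM, OPC were higher in 3 of 4 mice, whereas the fitted log2 fold change of OPC over astrocytes was below 0 (-0.19 ± 0.14, adjusted p 0.317). They were followed by Olig, endothelial cells, ependymal cells and tanycytes, between 47.7 and 60.2 CPM. Neighbours in this group did not differ, but Olig exceeded ependymal cells (0.46 ± 0.18, 0.0271) and tanycytes (0.52 ± 0.15, 0.00218). Microglia and COP formed the low end, at 14.1 and 11.2 CPM, and tanycytes exceeded microglia by 1.80 ± 0.53 (0.00538). For Spred1, the order of OPC and astrocytes depended on the scale. By CPM, OPC were higher in 4 of 4 mice, with a ratio of pooled counts of 1.24 (95% counting interval 1.10 to 1.39), while the joint fit gave -0.01 ± 0.12 (adjusted p 0.963). The means of all 8 types lay between 88.2 and 284 CPM. For Spred3, OPC exceeded astrocytes by 1.19 ± 0.33 (0.00274), and astrocytes and tanycytes, at 11.8 and 9.49 CPM, did not differ (adjusted p 0.413). For Etv5, OPC came first, then astrocytes and microglia at 59.4 and 57.4 CPM, which could not be told apart (0.06 ± 0.34, 0.916). For Etv4, OPC exceeded astrocytes by 2.46 ± 0.26 (1.48e-12) and astrocytes exceeded tanycytes by 2.06 ± 0.37 (3.20e-06), with all other types below 4 CPM. For Etv1, Olig, OPC and astrocytes were each apart, and astrocytes, microglia and endothelial cells, between 38.4 and 49.99 CPM, were not, although every endothelial value lay below every astrocyte value (astrocytes against endothelial cells 0.32 ± 0.21, adjusted p 0.212).

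The level of Spry2 varied between mice within several types. Its level was highest in mice 3 and 34 in OPC, in Olig, in tanycytes (51.6, 27.2, 39.0 and 72.8 CPM in mice 3, 4, 30 and 34) and in astrocytes (207, 75.8, 100.1 and 206 CPM). In ependymal cells, at 45.3, 34.6, 67.5 and 63.7 CPM, and in endothelial cells, at 71.9, 43.3, 56.9 and 54.0 CPM, the order was another one. Mouse 4 was lowest in each of these 6 types. Astrocyte Dusp6 was also higher in mice 3 and 34, and so was astrocyte Spry4, at 5.89, 1.28, 2.00 and 7.50 CPM, of which the values of mice 4 and 30 are 1 UMI each, whereas astrocyte Spred1, at 234, 186, 262 and 229 CPM, was not. In the same astrocytes Fos stood at 1628, 558, 398 and 1258 CPM and Egr1 at 285, 164, 96.1 and 287 CPM, and their part in the Spry2 values was not tested.

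Across the 32 sums of mouse and type in the joint fit, the feedback genes followed each other unevenly. Spry2 and Spred2 had a Pearson r of 0.81 in log2(CPM + 1), Spred1 and Etv4 0.76, Spred3 and Etv4 0.74, and Spry1 and Spry4 0.71. Dusp6 had an r of 0.56 with Etv5 and of -0.0026 with Spry2. Sums of different types from the same mouse share that mouse and its library, and types are not replicates, so these values are descriptions. Among 6580 genes with at least 50 CPM in some type, those most like Dusp6 were the immediate early gene Egr1 (r 0.87), the MHC gene H2-D1 (0.86) and Fosb (0.85). Egr1 stood at 2376 ± 348 CPM in microglia and 1093 ± 150 CPM in endothelial cells, the highest types for Dusp6 too. Its level in OPC, 235 ± 107 CPM, was below those of tanycytes (340 ± 176 CPM) and ependymal cells (299 ± 119 CPM), unlike that of Dusp6. Etv1 was most like Rcan2 (0.93), Stmn4 (0.91) and Sec11c (0.89), Etv5 like Cspg5 (0.90), Fxyd7 (0.89) and Kcnip3 (0.87), and Etv4 like Alcam (0.88), Fam19a1 (0.87) and Ptprz1 (0.86). Spred1 was most like Mdga2 (0.86), Il18 (0.86) and Hsd17b12 (0.86). The likeness was weaker for Spry2, led by Atp5o (0.83), Spry4, led by Sdc3 (0.83), and Spry1, led by Smarca2 (0.76).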

How the data were processed

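Single-cell libraries were made per the labels with the Chromium 3' v2 kit. Submitters' processing notes name Cell Ranger 1.2, Seurat, and the builds GRCm38, mm10 and GRCh38 without roles. The authors deposited raw UMI counts (whole numbers per gene and cell), cell type labels, a mitochondrial percent per cell and a doublet score as a fraction. How the cell type labels and the doublet score were made is not given in the sources used here. The deposited counts summed to the deposited UMI totals in every cell. Cells held at least 487 UMIs and at most 20.0% mitochondrial UMIs. The 50172 cells of 12 libraries outside the labelled samples were not used. Columns of depth-corrected counts were not used.

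Counts were summed per mouse and type, between 124361 and 5706406 UMIs over the 4 mice of a type. For pairs of types, edgeR 4.0.16 was used with its quasi-likelihood test (R 4.3.3, TMM, filterByExpr, Benjamini-Hochberg over all genes tested), with calls made beyond a log2 fold change of 1 where the adjusted p was under 0.05. Mouse was a block, since the types came from the same animals. The SE given with an edgeR log2 fold change was derived from the test. It is the absolute fold change divided by the square root of the F statistic, not a separately fitted standard error. A joint fit of 8 types, each with at least 20 cells in every mouse, gave each type against the mean of the others and neighbouring types in the order of a level. A mean over mice is a mean of CPM. Ratios have exact 95% intervals from pooled counts, covering counting error only, and the limit for 0 is 3 counts. The fits were tested on simulated counts. DESeq2 1.42.0 and other settings were tried as alternatives. All 10 genes were named, and pathway genes by the 3 largest called changes of a list in a pair. The genes and lists were chosen with earlier results of these data known. The labels do not say whether mice shared a preparation day.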

Additional observations from a re-analysis of the deposited data

Results flagged for a closer look

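Dusp6 in tanycytes was the one value in which a mouse lay apart from the other 3 by Dixon's criterion. Mouse 30 stood at 33.7 CPM, from 32 UMIs, against 21.6 to 23.5 CPM in the other mice. Of 53 combinations of gene and type with at least 20 UMIs, 1 was picked out in this way, and chance picks out about 5% of such groups. Mouse 30 was also the mouse with 855 CPM of Cxcl10 in its tanycytes, against 3.40 to 12.9 CPM in the others, and the part of this in the Dusp6 value was not tested. Without mouse 30, Dusp6 in tanycytes against ependymal cells had a log2 fold change of 1.201, against 0.87 with it.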

How the results depend on the processing

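The types came from the same mice, and without the replicate block the calls against the mean of the other types changed in 1 count, microglia lower, from 1 to 0. In the joint fit or with no filter on low counts, Olig against COP had 5 genes higher. With sums thinned to the smallest total, which left 2 to 5 genes tested, the counts were 1 higher in Olig against COP, 3 lower in tanycytes against astrocytes, and, against the mean of the other types, 2 higher in OPC, 1 lower in COP, 0 lower in Olig, 1 higher and 0 lower in astrocytes, 1 lower in tanycytes, 1 lower in ependymal cells, 0 higher and 0 lower in endothelial cells and 0 higher and 0 lower in microglia. How far the smaller number of genes tested accounts for that was not tested. With no limit on the fold change, tanycytes against ependymal cells had 3 higher, and against the mean of the others 4 were higher and 2 lower in Olig, 1 higher in tanycytes, 4 lower in ependymal cells and 3 lower in endothelial cells. DESeq2 gave 2 lower in Olig and 2 lower in endothelial cells. With no filter, 1 gene was higher in tanycytes against ependymal cells. With cells below the 90th percentile of the doublet score, 1 gene was higher in tanycytes against ependymal cells and 4 were lower in ependymal cells against the mean. For these changes the cause was not tested.

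Leaving out each mouse in turn, tanycytes against ependymal cells had 1 to 1 higher, ependymal cells against the mean 2 to 4 lower (4 without mouse 30) and microglia 1 to 2 higher (1 without mouse 34). OPC had 6 to 9 higher against the mean and COP against OPC 7 to 8 lower. In values near 0, Spred1 in Olig against COP turned from -0.0095 to 0.0608 in the joint fit, 0.0406 with no filter and 0.0255 in DESeq2, and ranged from -0.18 to 0.14 with a mouse left out. Spry2 in tanycytes against ependymal cells turned from -0.0036 to 0.00916 with RLE size factors and 0.0221 with no filter, and ranged from -0.19 to 0.21 with a mouse left out. Spred2 in Olig against OPC was -0.94 without mouse 3. Spry2 in Olig against OPC was -0.90 with thinned sums, -0.99 in the joint fit and -0.98 with no filter, each short of the limit on the fold change. Over all alternatives, 287 counts kept within 1.5 times and 33 did not, and 405 fold changes kept direction and call, 9 turned in direction, 8 lost the call and 5 gained it. Depth limits what can be said of Spry1, Spry4 and Etv4 in COP, with 3, 1 and 2 UMIs, and of microglia, with 34 cells in 1 mouse.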
